A study of Mus musculus with 6 samples.

Results

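The 10 genes described here encode enzymes that supply skeletal muscle fibres with ATP: Pygm, Pfkm, Aldoa, Eno3, Pgam2, Ldha, Ckm, Ckmt2, Gpd1 and Ampd1. They were taken by name from a table of RNA-Seq read counts for 26814 gene symbols, and all 10 were found in the table and passed the filter on low counts that left 15009 genes for testing. The libraries were made from the whole top lip of adult female C57BL/6J mice, 3 of them wild type (WT1, WT2, WT3) and 3 labelled as Gtf2ird1 KO mice (KO1, KO2, KO3), which carry the Gtf2ird1tm1Hrd allele on the same background. Each library came from 1 mouse, no agent was given, and the groups share strain, sex and tissue. Gtf2ird1 encodes a transcription factor of the TFII-I family, and the study compared the genotypes to find genes that differ in lip tissue without it. The lip of a mouse holds epidermis, dermis, hair follicles, fat, vessels, nerves and a layer of striated muscle, and the allele was present in every cell type.

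Skeletal muscle makes ATP in bursts. Glycogen phosphorylase releases glucose 1-phosphate from glycogen, glycolysis turns it into pyruvate, and lactate dehydrogenase regenerates the NAD+ that glycolysis needs. Creatine kinase moves a phosphate from phosphocreatine to ADP at the myofibril, its mitochondrial form refills phosphocreatine, and AMP deaminase removes AMP when ATP is spent quickly. For most of these steps the genome holds a muscle isozyme and 1 or more isozymes used by other tissues, while Aldoa and Ldha are also expressed widely outside muscle.

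The promoter sequences of 5 of the genes are shown because most of the 10 varied together over the libraries, and because they differ in the letters that muscle transcription factors are known to bind. Each sequence is the stretch of 250 bases before a transcription start of RefSeq on GRCm38.p6, written 5′ to 3′ on the strand of the gene. Capitals mark matches to the E-box (CANNTG) and to the longer MEF2 motif, bound by the MEF2 factors. MyoD and related factors bind some forms of the E-box, and a match does not tell which factor binds. For Ldha the first of the starts listed is shown.
Pygm (chr19:6384158-6384407, plus strand): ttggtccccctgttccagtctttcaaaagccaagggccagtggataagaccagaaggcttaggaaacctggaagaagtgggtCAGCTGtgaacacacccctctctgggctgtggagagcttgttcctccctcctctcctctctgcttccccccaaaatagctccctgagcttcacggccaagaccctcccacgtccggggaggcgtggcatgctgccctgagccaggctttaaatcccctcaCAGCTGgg
Pgam2 (chr11:5803797-5804046, minus strand): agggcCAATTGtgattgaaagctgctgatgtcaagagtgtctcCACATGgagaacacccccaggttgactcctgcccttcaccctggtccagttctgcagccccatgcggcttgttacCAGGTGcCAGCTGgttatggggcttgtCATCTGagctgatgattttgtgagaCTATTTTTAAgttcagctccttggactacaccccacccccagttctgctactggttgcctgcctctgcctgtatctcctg
Ldha (chr7:46845554-46845803, plus strand): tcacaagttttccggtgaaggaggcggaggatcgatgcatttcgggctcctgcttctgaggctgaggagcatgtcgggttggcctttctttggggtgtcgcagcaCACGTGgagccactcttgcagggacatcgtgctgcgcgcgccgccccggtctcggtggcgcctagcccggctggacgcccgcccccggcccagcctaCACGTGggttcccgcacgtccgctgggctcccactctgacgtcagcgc
Ckm (chr7:19410844-19411093, plus strand): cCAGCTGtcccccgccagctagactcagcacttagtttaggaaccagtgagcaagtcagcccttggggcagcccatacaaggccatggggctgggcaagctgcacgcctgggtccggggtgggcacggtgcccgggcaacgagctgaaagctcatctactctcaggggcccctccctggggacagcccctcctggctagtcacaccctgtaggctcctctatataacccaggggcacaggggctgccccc
Ckmt2 (chr13:91876886-91877135, minus strand): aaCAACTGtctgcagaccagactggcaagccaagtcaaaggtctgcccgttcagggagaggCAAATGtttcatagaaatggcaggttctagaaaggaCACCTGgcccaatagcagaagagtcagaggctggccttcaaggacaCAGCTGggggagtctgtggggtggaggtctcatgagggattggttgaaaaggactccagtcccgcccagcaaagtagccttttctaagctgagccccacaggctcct
RefSeq promoters were matched for 8 of the 10 genes, all but Gpd1 and Ampd1. An E-box was found on either strand in at least 1 promoter of all 8, and in 66.2% of 32851 promoters of the same length. The MEF2 motif was matched in 1 of the 8, Pgam2, at 71 bases before the start, and in 2.92% of all promoters. The M-CAT letters CATTCC, bound by TEAD factors, were matched in Aldoa and Eno3, 2 of the 8 against 12.6% of all promoters. The letters ACGTG, the core bound by the hypoxia-inducible factors, were matched in Pygm, Pfkm, Aldoa and Ldha, 4 of the 8 against 16.6% of all promoters. In the Ldha promoter shown, ACGTG was matched 5 times over both strands. The matches at 141 and 140 and at 44 and 43 bases before the start are 2 E-boxes of the form CACGTG. Each of these reads the same on both strands and is therefore counted on both. The TATA box letters TATAAA were matched in 0 of the 8 and in 12.4% of all promoters. Only these exact letters were counted, so the TATATAA near the end of the Ckm promoter shown was not. The GC box letters GGGCGG were matched in Aldoa, Ldha and Ckmt2, 3 of the 8 against 32.7%. Pfkm has 4 listed starts, Aldoa 3 and Ldha 2, so these genes had more bases in which letters could match. A match describes letters only and is not a bound site.

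The libraries held between 20164081 and 29491767 counts on genes, so that 3 counts, the most that a count of 0 allows, stood for 0.0986 to 0.154 CPM, counts scaled to a common library size. The 10 genes had between 154 and 68529 counts in any library and took between 0.261% and 0.635% of all counts. Gtf2ird1 itself was higher in the libraries labelled KO, with 78.2, 70.2 and 70.7 CPM in WT1, WT2 and WT3 and 166, 162 and 144 CPM in KO1, KO2 and KO3 (log2 fold change 1.11, SE 0.13, adjusted p = 0.0018, edgeR). A count per gene does not show whether its reads encode a working protein, so this level cannot decide whether a label is right. The paper states that tail biopsies were taken to check the genotyping and that the KO mice had overgrown, wrinkled lips. It also cites work in which the GTF2IRD1 protein binds the promoter of its own gene and regulates it. The cause of the higher level was not tested, and directions are given for libraries as labelled. KO3 stood nearer to the WT libraries than KO1 and KO2 did, with correlations of log2 CPM over genes of 0.963 to 0.968 with the WT libraries against 0.923 to 0.950 for KO1 and KO2. The main counts are therefore given without KO3 too. The summed CPM of 23 skeletal muscle markers was 23749, 17848 and 22126 in WT1, WT2 and WT3 and 8372, 8996 and 14098 in KO1, KO2 and KO3. The defining marker Acta1, skeletal alpha-actin, was abundant in all libraries, while Myh7, slow myosin, was at or near 0, as were the heart markers Myh6 and Nppa.

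In the libraries labelled KO, 9 of the 10 muscle energy genes had lower mean levels, by 35.4% to 53.3%, and the mean of Ldha was 1.11 times that of WT. The values of KO1, KO2 and KO3 all lay below those of WT1, WT2 and WT3 for 7 genes: Pygm, Pfkm, Aldoa, Eno3, Pgam2, Ckm and Ampd1. For Ckmt2 and Gpd1 the groups overlapped through KO3. For Ldha they overlapped through KO2, while KO1 and KO3 lay above all WT libraries. None of the 10 genes reached an adjusted p under 0.05 by edgeR's quasi-likelihood method over all 15009 genes, where 6.47% of tested genes were called, 2.09% lower and 4.38% higher. An unadjusted p under 0.05 was found for 9 of the 10, all lower, against 16% of tested genes. Groups without overlap and lower in the libraries labelled KO were found for 18.1% of tested genes, and a negative log2 fold change for 52%. The median log2 fold change of the 10 genes was -0.81, and that of all tested genes was -0.02. For each of the 7 genes without overlap the exact two-sided permutation test gave p = 0.1, the smallest value that 3 against 3 libraries allow. In bulk tissue, fewer muscle fibres and less of a transcript per fibre cannot be told apart.

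**Figure D1:**
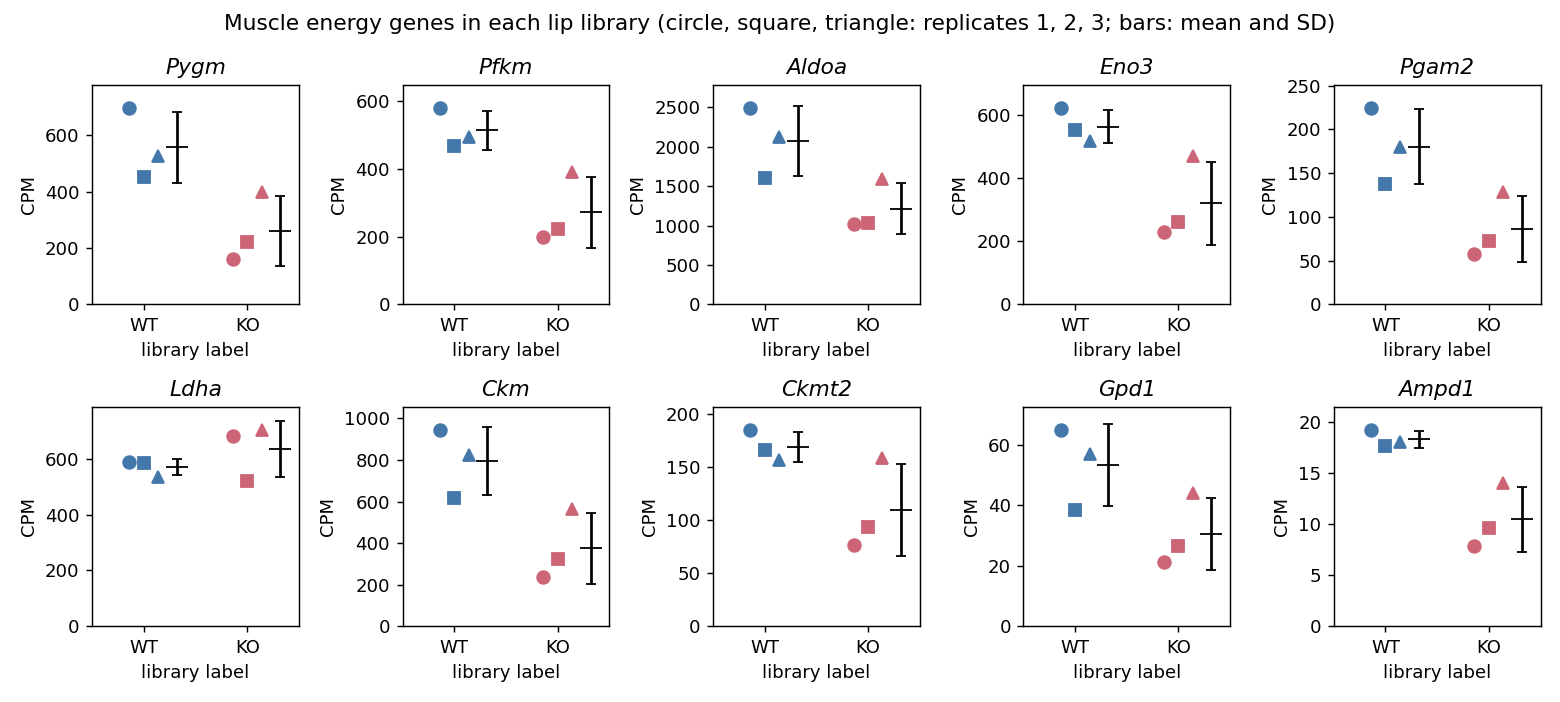
Level in CPM (vertical axes, from 0) of each of the 10 genes in the libraries labelled WT (blue) and KO (red), with circle, square and triangle for replicates 1, 2 and 3 and bars for mean and SD. The red points lie below the blue points in 7 panels, KO3 is the highest of the red points in all 10, and in Ldha the colours mix.

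Pygm encodes muscle glycogen phosphorylase, which starts the use of stored glycogen and is the enzyme lost in McArdle disease. The gene lies on chromosome 19 from 6384399 to 6398459 (GRCm38, plus strand). Its level was 694, 451 and 524 CPM in WT1, WT2 and WT3 and 159, 221 and 399 CPM in KO1, KO2 and KO3. The groups did not overlap, but the spread was wide, and KO3 lay closer to WT2 than to KO2. The means were 556 ± 125 CPM for WT and 260 ± 125 CPM for KO (SD, n = 3 mice each), a ratio of 2.14 between WT and KO and the most negative log2 fold change of the 10 genes (-1.10, SE 0.33, adjusted p = 0.0815).

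Pfkm encodes the muscle subunit of phosphofructokinase, which catalyses the committed step of glycolysis (chromosome 15, 98092589 to 98132451, plus strand). It had 579, 469 and 496 CPM in WT1, WT2 and WT3 and 199.9, 224 and 392 CPM in KO1, KO2 and KO3. All values of the libraries labelled KO were lower, with KO1 and KO2 close together and KO3 apart from them (log2 fold change -0.92, SE 0.26, adjusted p = 0.0717). The annotated gene Gm26513 covers 10.2% of the exon bases of Pfkm.

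Aldoa encodes aldolase A, which splits fructose 1,6-bisphosphate and is the main aldolase of muscle as well as of many other tissues (chromosome 7, 126795234 to 126800751, minus strand). It was the most abundant of the 10 genes, with 2487, 1606 and 2130 CPM in WT1, WT2 and WT3 and 1025, 1029 and 1591 CPM in KO1, KO2 and KO3. KO3 and WT2 were nearly level, at 1591 and 1606 CPM, so that the absence of overlap rests on a small gap. The log2 fold change was -0.77 (SE 0.25, adjusted p = 0.0940).

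Eno3 encodes beta-enolase, the muscle form of the enzyme that makes phosphoenolpyruvate (chromosome 11, 70657202 to 70662513, plus strand). It had 621, 552 and 517 CPM in WT1, WT2 and WT3 and 229, 261 and 469.7 CPM in KO1, KO2 and KO3. The WT libraries varied little, with an SD of 52.6 CPM, and the libraries labelled KO varied more, with an SD of 131 CPM (log2 fold change -0.82, SE 0.27, adjusted p = 0.0952).

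Pgam2 encodes the muscle subunit of phosphoglycerate mutase, the step before enolase (chromosome 11, 5801640 to 5803733, minus strand), and its promoter is the one shown above with a MEF2 match and 5 E-boxes. Its level was 224, 137 and 179.9 CPM in WT1, WT2 and WT3 and 57.3, 73.0 and 128 CPM in KO1, KO2 and KO3. The groups did not overlap, and the gap between KO3 and WT2 was again small. The mean was 2.09 times as high in WT (log2 fold change -1.07, SE 0.31, adjusted p = 0.0768).

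Ldha encodes the A subunit of lactate dehydrogenase, which reduces pyruvate to lactate in fast muscle and in epithelia alike (chromosome 7, 46841475 to 46855627, plus strand). Its level was 590.1, 587 and 536 CPM in WT1, WT2 and WT3 and 683, 521 and 703 CPM in KO1, KO2 and KO3. KO2 was the lowest and KO3 the highest of the 6 libraries, and KO1 also lay above all WT libraries, so the groups overlapped through KO2 alone. Ldha was the one gene of the 10 with a positive log2 fold change (0.15, SE 0.16, adjusted p = 0.542; exact permutation p = 0.4). With all 6 libraries the difference was smaller than the spread between the libraries labelled KO, whose SD was 99.7 CPM.

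Ckm encodes the muscle creatine kinase that sits at the M line and buffers ATP during contraction (chromosome 7, 19404776 to 19422841, plus strand). It had 943, 618 and 825 CPM in WT1, WT2 and WT3 and 236, 321 and 565 CPM in KO1, KO2 and KO3. KO1 stood at 29.7% of the WT mean and KO3 at 71.1%, and no value of the libraries labelled KO reached the lowest WT value (log2 fold change -1.09, SE 0.32, adjusted p = 0.0787). The antisense gene A930016O22Rik covers 15.5% of the exon bases of Ckm, and whether counting used the strand is not given in the sources used here.

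Ckmt2 encodes the sarcomeric mitochondrial creatine kinase, which makes phosphocreatine from ATP at the inner mitochondrial membrane (chromosome 13, 91853387 to 91876885, minus strand). Its level was 185, 166 and 157 CPM in WT1, WT2 and WT3 and 76.3, 93.5 and 158 CPM in KO1, KO2 and KO3. KO3 was within the WT range, at 93.5% of the WT mean, while KO1 and KO2 were at 45.0% and 55.2%. The log2 fold change was -0.63 (SE 0.26, adjusted p = 0.148; exact permutation p = 0.2), the least negative of the 9 genes that were lower.

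Gpd1 encodes the cytosolic glycerol 3-phosphate dehydrogenase, one end of the glycerol phosphate shuttle that carries reducing equivalents to mitochondria, and is also abundant in fat (chromosome 15, 99717515 to 99725005, plus strand). It had 64.8, 38.3 and 56.8 CPM in WT1, WT2 and WT3 and 21.1, 26.6 and 44.0 CPM in KO1, KO2 and KO3. WT2 lay below KO3, so the groups overlapped (log2 fold change -0.80, SE 0.30, adjusted p = 0.123; exact permutation p = 0.2). Antisense Gm16537 covers 13.0% of its exon bases. White fat markers moved in the same direction: their summed CPM was 228 to 311 in WT and 156 to 196 in the libraries labelled KO, with 1 of 7 (Fabp4) called lower, and their part in the level of Gpd1 was not tested.

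Ampd1 encodes the AMP deaminase of skeletal muscle, which turns AMP into IMP in the purine nucleotide cycle (chromosome 3, 103074014 to 103099720, plus strand). It was the least abundant of the 10 genes, with 19.2, 17.6 and 18.1 CPM in WT1, WT2 and WT3 and 7.88, 9.60 and 14.0 CPM in KO1, KO2 and KO3. It had the tightest WT values, with an SD of 0.817 CPM around a mean of 18.3 CPM, and all values of the libraries labelled KO were lower. The log2 fold change was -0.80 (SE 0.22), and its adjusted p of 0.0698 was the lowest of the 10 genes.

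Within the libraries labelled KO, KO3 had the highest level of all 10 genes and KO1 the lowest of 9. As a percentage of the WT mean, Pygm was at 28.7% in KO1, 39.7% in KO2 and 71.8% in KO3. The same percentages for the other 8 genes that were lower ran from 29.7% (Ckm) to 49.4% (Aldoa) in KO1, from 40.4% (Ckm) to 55.2% (Ckmt2) in KO2 and from 71.1% (Ckm) to 93.5% (Ckmt2) in KO3. Among the WT libraries, WT1 had the highest level of all 10 genes and WT2 the lowest of 7. Over the 6 libraries the log2 CPM of pairs of the 10 genes had a median Pearson correlation of 0.97 and a lowest of -0.26, which involved Ldha. These 6 points share the split by label and the muscle content of each library, and the correlations are a description.

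Leaving out KO3 changed the calls. Without it, 9 of the 10 genes were called by the same test, all lower, where 16.2% of 14802 tested genes were called lower. Pygm then had a log2 fold change of -1.54 (adjusted p = 0.0019), Ckm -1.51 (0.0021), Pgam2 -1.46 (0.0019) and Pfkm -1.27 (0.0011). Ckmt2, at -0.99, had an adjusted p of 0.0022, and Gpd1, at -1.15, had one of 0.0057. Ldha alone was not called, at 0.08 (adjusted p = 0.741). Leaving out any of the other 5 libraries gave 0 calls among the 10 genes. With all 6 libraries, edgeR's exact test called 8 of the 10 lower (all but Ckmt2 and Ldha, against 7.15% of all tested genes), and DESeq2's Wald test called 7, the genes without overlap (5.31% of its tested genes were lower), while limma-voom called 0. The threshold of an adjusted p under 0.1 was passed by the same 7 genes in the quasi-likelihood test, and by 8.53% of tested genes in the same direction.

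**Figure D2:**
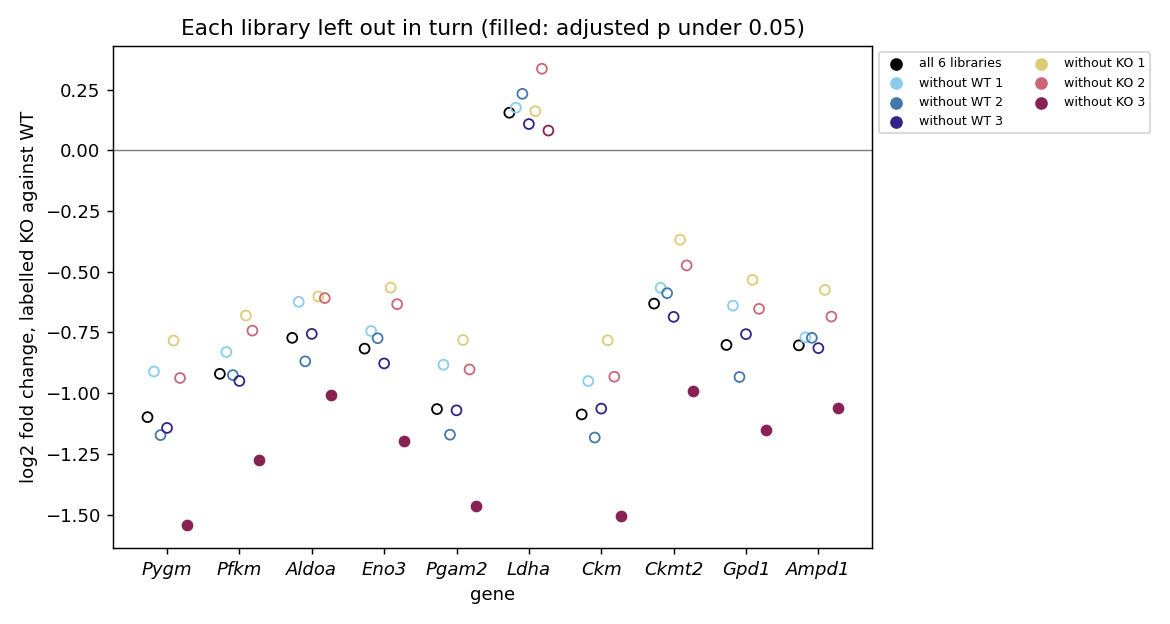
Log2 fold change (vertical axis) of each of the 10 genes with all 6 libraries and with each library left out, filled where the adjusted p is under 0.05. Filled points appear only without KO3, for 9 genes between -0.99 and -1.54, and Ldha stays at or above 0.08 throughout.

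Divided by exon length, the order of levels in WT was Aldoa, Eno3, Ckm, Pgam2, Pygm, Ldha, Pfkm, Ckmt2, Gpd1 and Ampd1. Aldoa stood first with 713 ± 152 CPM per kb and did not overlap with Eno3, at 324 ± 30.2 CPM per kb. From Eno3 down to Pfkm, at 154 ± 17.1 CPM per kb, the ranges of neighbours in the order overlapped, and Pygm (173 ± 38.8 CPM per kb) and Ldha (173 ± 9.14 CPM per kb) were level. Ckmt2 (114 ± 9.60 CPM per kb), Gpd1 (18.0 ± 4.58 CPM per kb) and Ampd1 (5.17 ± 0.23 CPM per kb) were each below the gene before them in all WT libraries. In the libraries labelled KO, Ldha came second after Aldoa, at a mean of 192 ± 30.1 against 417 ± 112 CPM per kb, but overlapped with Eno3 (184 ± 75.2 CPM per kb), which was the higher of the pair in KO3, and Gpd1 and Ampd1 remained the last. The order near Ldha depends on the length used, since with the longest transcript in place of all exons Ldha had 315 CPM per kb in WT and Aldoa 1339.

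For each enzyme the level of the muscle gene was set against that of a paralogue in the same library, as the difference of log2(CPM + 1), and the differences were compared between labels. In 10 of 13 pairs the difference was lower in every library labelled KO than in every WT library, with a median over all pairs of -0.94. Of the 10 muscle energy genes, 7 were already lower without overlap by themselves, against 18.1% of tested genes. The pairs are not independent, since Pygm, Pfkm and Ampd1 each enter with more than a single paralogue. The share among other pairs of genes was not calculated. Each of these 10 reached the smallest p of the exact permutation test (0.1, or 0.13 after Benjamini-Hochberg adjustment over 13 pairs), so none could pass 0.05. The pairs that overlapped were Pygm with Pygl, Gpd1 with Gpd1l and Ldha with Ldhb. Without KO3 the median was -1.20 and 12 pairs did not overlap. Pygm with Pygl (-1.45) and Gpd1 with Gpd1l (-0.51) then separated, while Ldha with Ldhb (0.25) did not. With fewer libraries, groups separate more easily.

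The phosphofructokinase subunits were furthest apart. Pfkl, the liver form, had 52.0, 42.4 and 47.3 CPM in WT1, WT2 and WT3 and 78.4, 55.5 and 74.1 CPM in KO1, KO2 and KO3, all above WT (log2 fold change 0.55, SE 0.17, adjusted p = 0.0814). Pfkp, the platelet form, was likewise higher in each library labelled KO (0.51, SE 0.15, adjusted p = 0.0828). The difference of Pfkm to Pfkl was lower by 1.51 in the libraries labelled KO, and that to Pfkp by 1.49. Counted per exon length, Pfkm made up 91.8 ± 1.0% of the transcripts of the 3 genes in WT and 79.4 ± 6.12% in the libraries labelled KO.

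Enolase and phosphoglycerate mutase showed the same arrangement. Eno1, the alpha-enolase of most tissues, had 365, 327 and 368 CPM in WT1, WT2 and WT3 and 571, 383 and 534 CPM in KO1, KO2 and KO3 (log2 fold change 0.49, SE 0.18, adjusted p = 0.118). The log2 difference of Eno3 to Eno1 was 0.76, 0.75 and 0.49 in WT1, WT2 and WT3 and -1.31, -0.55 and -0.19 in KO1, KO2 and KO3, which do not overlap. Per length of all exons, the share of Eno3 among Eno3, Eno1 and Eno2 was 82.7 ± 1.57% in WT and 65.1 ± 9.13% in the libraries labelled KO. That share depends on the length used. Eno1 has 5.379 kb in all exons and 2.027 kb in its longest transcript, against 1.739 and 1.564 kb for Eno3. With the longest transcript the share of Eno3 would be lower under both labels, and it was not calculated. Pgam1, the form of brain and other tissues, was higher in each library labelled KO (0.36, SE 0.14, adjusted p = 0.138), and the share of Pgam2 was 85.1 ± 1.60% in WT and 66.8 ± 8.11% in the libraries labelled KO. Reads that also map to processed pseudogenes, which are common for Eno1, Pgam1, Ldha and Gapdh, would not have been assigned uniquely, so their levels are less certain.

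None of the 4 creatine kinase genes passed the test. Ckb, the brain form of the cytosolic enzyme, was lower in mean too (76.5 ± 13.6 against 54.6 ± 12.4 CPM; log2 fold change -0.49, SE 0.21, adjusted p = 0.161), so the difference of Ckm to Ckb was lower by 0.67. Ckmt1, the ubiquitous mitochondrial form, had 150.1, 147 and 151 CPM in WT1, WT2 and WT3 and 236, 179 and 229 CPM in KO1, KO2 and KO3 (0.52, SE 0.14, adjusted p = 0.0697). All libraries labelled KO were above WT in Ckmt1, whereas for Ckmt2 KO1 and KO2 were below all WT libraries. Per length, Ckmt2 made up 67.4%, 65.5% and 63.6% of the mitochondrial creatine kinase transcripts in WT1, WT2 and WT3 and 35.2%, 46.8% and 53.8% in KO1, KO2 and KO3. The sum of both mitochondrial forms was 174 ± 9.58 CPM per kb in WT and 160 ± 34.0 CPM per kb in the libraries labelled KO, which overlapped (exact permutation p = 0.5). The sum of Ckm and Ckb was 299.5 ± 59.1 against 147 ± 62.4 CPM per kb, without overlap (exact permutation p = 0.1).

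For glycogen phosphorylase, the brain form Pygb (log2 fold change -0.22, adjusted p = 0.390) and the liver form Pygl (-0.12, adjusted p = 0.649) had small differences, and the share of Pygm was 89.0 ± 2.03% in WT and 80.4 ± 4.52% in the libraries labelled KO. Aldoa made up 99.4 ± 0.16% of the transcripts of Aldoa and Aldoc in WT and 98.9 ± 0.33% in the libraries labelled KO. Ampd1 was the minor form of its family in whole lip, with 23.3 ± 0.82% of the transcripts of Ampd1, Ampd2 and Ampd3 in WT and 14.2 ± 3.84% in the libraries labelled KO. Ldhb, the heart subunit of lactate dehydrogenase, had a log2 fold change of -0.12 (adjusted p = 0.558), and Gpd1l one of -0.43 (adjusted p = 0.163). In all, 7 of the 13 paralogues had a positive log2 fold change (8 with DESeq2's size factors, which turned Ampd2), 5 had all libraries labelled KO above all WT libraries (13.5% of tested genes did), and 0 passed an adjusted p of 0.05. The shares and sums per length used all exons, were calculated after the levels had been seen and are a description. With the longest transcript they would differ. For example, Ckmt1 has 2.496 kb in all exons and 1.62 kb in its longest transcript, while Ckmt2 has 1.486 kb in both.

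**Figure D3:**
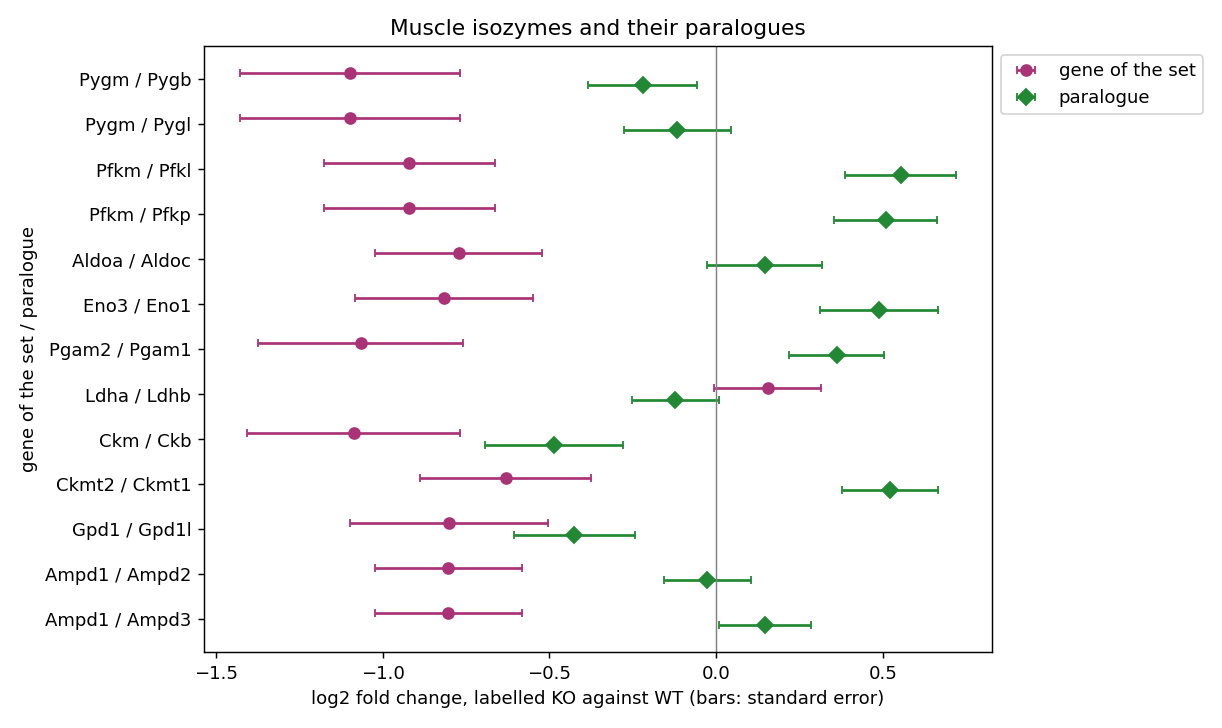
Log2 fold change with its standard error (horizontal axis) of each muscle gene (purple circles) and of the paralogue set against it (green diamonds), 13 pairs. The circles lie between -1.10 and -0.63 except for Ldha at 0.15, and the diamonds between -0.49 (Ckb) and 0.55 (Pfkl).

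Muscle structural genes had lower levels in the libraries labelled KO, as 9 of the 10 energy genes did. Of 23 skeletal muscle markers 20 were tested, all 20 had negative log2 fold changes (52% of tested genes did) with a median of -1.01, and 19 had all libraries labelled KO below WT (18.1% of tested genes). As single genes 3 of the 20 were called lower, against 2.09% of tested genes: Tnnt3 (adjusted p = 0.0397), Tnni2 (0.0484) and Tcap (0.0248), which encode fast troponin T, fast troponin I and telethonin. Acta1 was at 2749 ± 820 CPM with the WT label and 1127 ± 527 CPM with the KO label (log2 fold change -1.29, adjusted p = 0.0718), and myoglobin (Mb) 1164 ± 297 and 497 ± 253 CPM (-1.23, adjusted p = 0.0771). The fast myosins were Myh4, with 2913 ± 468 and 1847 ± 506 CPM (-0.66, adjusted p = 0.129), and Myh1, with 1119 ± 40.4 and 731 ± 256 CPM (-0.61, adjusted p = 0.141). Myh2, of oxidative fast fibres, was low, at 15.5 ± 4.16 and 8.84 ± 3.14 CPM. The markers not tested were Myh7, Tnnc1 and Tnnc2, and 74.0% of the exon bases of Tnnc2 lie in Ube2c on the opposite strand.

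Set against the summed muscle markers of the same library, the sum of the 10 genes was higher, not lower, in the libraries labelled KO. The ratio of the summed CPM of the 10 genes to that of the markers was 0.270, 0.260 and 0.246 in WT1, WT2 and WT3 and 0.322, 0.309 and 0.317 in KO1, KO2 and KO3. The highest WT ratio was thus below the lowest ratio of the libraries labelled KO. Much of this sum is Aldoa and Ldha, which are also expressed outside muscle. The ratio of the sums therefore does not describe the other genes, and the ratio without Aldoa and Ldha was not calculated. Gene by gene, the difference of log2(CPM + 1) to log2 of the marker sum was compared between labels by the exact permutation test. Pygm (-0.13), Ckm (-0.11), Pgam2 (-0.06), Pfkm (0.07) and Eno3 (0.16) overlapped between labels, with exact permutation p from 0.4 (Eno3) to 0.8 (Pgam2). Gpd1 (0.23) and Ckmt2 (0.35) overlapped as well, each with exact permutation p = 0.2. In Aldoa (0.27), Ampd1 (0.26) and Ldha (1.19) all libraries labelled KO lay above all WT libraries (exact permutation p = 0.1, and 0.333 after adjustment over 10 genes). The gap was narrow for Ampd1, which overlapped with a pseudocount of 0.25, and with the median of the markers in place of their sum Aldoa and Ampd1 overlapped and Ckmt2 did not. The median of the 10 differences was 0.20. Left-out libraries moved Ldha between 0.99 and 1.35, the latter without KO3, which left the median at 0.13. The sign turned for Pygm (-0.26 without KO3, 0.02 without KO1), for Ckm (-0.22 without KO3, 0.03 without KO1) and for Pgam2 (-0.16 without KO3, 0.04 without KO1 and 0.02 without WT1).

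**Figure D4:**
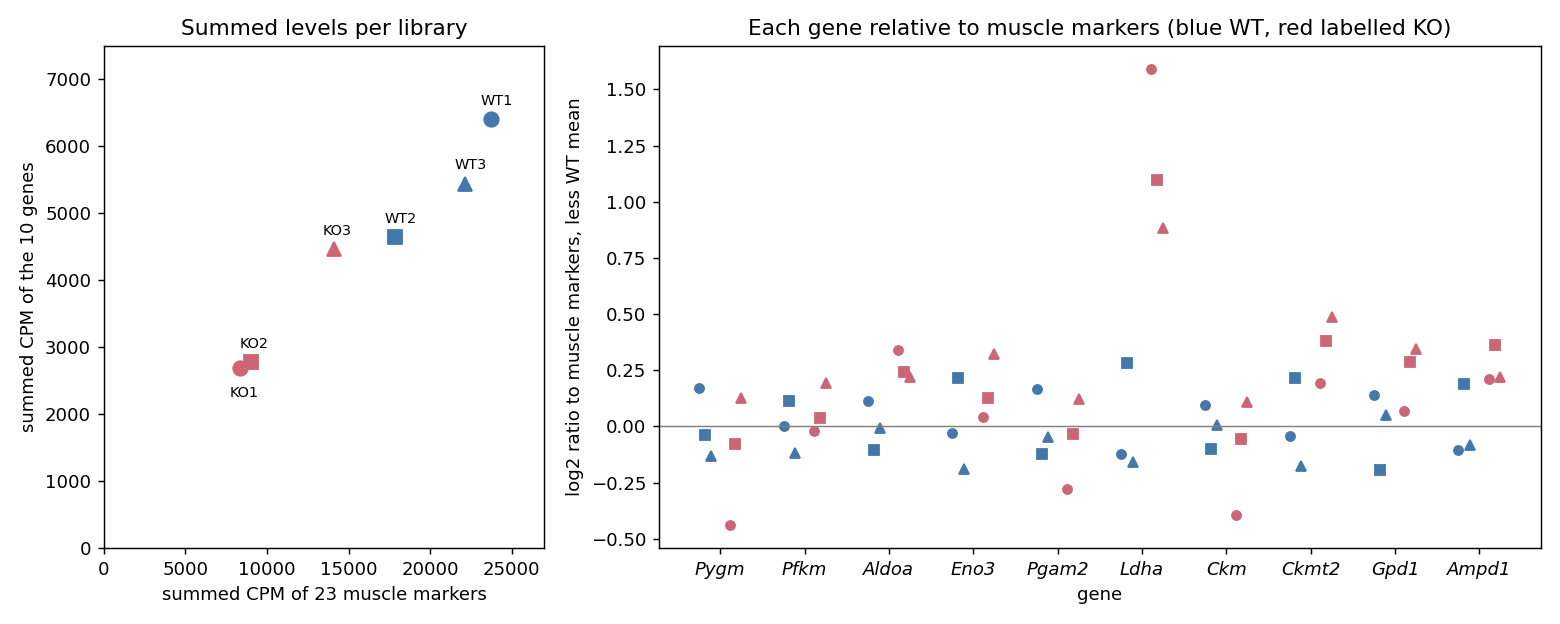
Left, summed CPM of the 10 genes against summed CPM of the 23 muscle markers in each library. Right, log2 ratio of each gene to the marker sum, less the WT mean, with WT in blue and the libraries labelled KO in red; red and blue points mix for 7 genes, and the red points of Ldha lie highest, on average 1.19 above WT.

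Other cell types of the lip differed between labels as well. The summed CPM of 6 suprabasal keratinocyte markers was 17748 to 22456 in WT and 28726 to 43835 in the libraries labelled KO, while that of 5 basal keratinocyte markers overlapped (9563 to 10653 and 9275 to 11024). Brown fat markers (618 to 837 and 388 to 558), Schwann cell markers (311 to 334 and 162 to 279) and smooth muscle markers (191 to 229 and 134 to 189) were lower in the libraries labelled KO without overlap. The brown fat sum was mostly Elovl3 and Cidea, while the defining gene Ucp1 was near the floor and higher in the libraries labelled KO (0.334 ± 0.0887 against 1.13 ± 0.350 CPM, not tested). Fibroblast markers (4467 to 5708 in WT and 1940, 2566 and 4513 in KO1, KO2 and KO3) overlapped through KO3 alone. So did endothelial markers (169 to 192 in WT and 107, 119 and 197 in KO1, KO2 and KO3). All 5 fibroblast and all 4 endothelial markers had negative log2 fold changes (52% of tested genes did), and 0 were called. Blood cell markers overlapped too (76.1 to 158 and 73.6 to 123). Heart markers were near the floor, at 4.81 to 7.10 and 4.62 to 8.60 CPM in all. The part of these cell types in the levels of Ldha, of Aldoa and of the paralogues was not tested.

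The other genes of these pathways were examined as 8 lists with 112 symbols, of which 110 were in the table and 103 were tested. Over all lists 3 genes were lower and 5 higher at an adjusted p of 0.05, where 2.09% and 4.38% of all tested genes were called. Their median log2 fold change was -0.22, and 69 of the 103 were negative. The remaining enzymes of glycolysis and gluconeogenesis split evenly, with 11 of 22 positive, a median of 0.01 that turned to -0.05 with upper-quartile scaling and to -0.0033 with library size alone, and 1 gene called, Fbp1, a fructose bisphosphatase, which fell from 25.3 ± 3.66 to 15.8 ± 1.34 CPM (log2 fold change -0.67, adjusted p = 0.0482). Of the most abundant genes of the list besides Eno1, none passed, with Gapdh at -0.37 (adjusted p = 0.315), Tpi1 at -0.30 (0.289) and Pkm at 0.11 (0.706).

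Among 19 tested genes of glycogen metabolism, 14 were negative, with a median of -0.35. Gyg, the glycogenin that primes glycogen, fell from 61.8 ± 7.42 to 34.9 ± 7.97 CPM (-0.83, adjusted p = 0.0433). Epm2a, the glycogen phosphatase laforin, rose from 17.4 ± 4.09 to 33.2 ± 1.28 CPM (0.93, adjusted p = 0.0259). Gys1, the muscle glycogen synthase, had 251, 142 and 184 CPM in WT1, WT2 and WT3 and 52.2, 74.8 and 131 CPM in KO1, KO2 and KO3, without overlap, but did not pass (-1.16, SE 0.34, adjusted p = 0.0789). Ugp2, which makes UDP-glucose, did not pass either (-0.31, adjusted p = 0.179).

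In the creatine list 0 of 5 genes passed, with a median of -0.49. The creatine transporter Slc6a8 had a log2 fold change of -0.18 (adjusted p = 0.388), and Gatm, which catalyses the first step of creatine synthesis, had one of -0.73 (adjusted p = 0.0774). The largest change of any listed gene in the upward direction was that of Ak4, a mitochondrial adenylate kinase. It had 25.7, 30.2 and 21.5 CPM in WT1, WT2 and WT3 and 99.1, 100.1 and 111 CPM in KO1, KO2 and KO3, with a wide gap between the groups (log2 fold change 2.0, SE 0.16, adjusted p = 0.00024). Ak1, the adenylate kinase of muscle, was at 217 ± 53.8 and 102 ± 47.5 CPM (-1.09, adjusted p = 0.0810), and Adssl1, the muscle enzyme that acts after Ampd1 in the purine nucleotide cycle, at 123 ± 22.2 and 59.7 ± 27.2 CPM (-1.05, adjusted p = 0.0755).

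Of 9 genes of the NADH shuttles 2 rose and 0 fell. Gpd2, the mitochondrial partner of Gpd1 in the glycerol phosphate shuttle, rose from 29.7 ± 1.86 to 50.9 ± 5.98 CPM (0.77, adjusted p = 0.0183). Slc25a13, an aspartate and glutamate carrier of the malate-aspartate shuttle, rose from 25.9 ± 1.57 to 52.0 ± 4.0 CPM (1.0, adjusted p = 0.0034). The more abundant Mdh2 (-0.35, adjusted p = 0.286), Got2 (-0.56, adjusted p = 0.168), Got1 (-0.77, adjusted p = 0.0774) and Mdh1 (0.11, adjusted p = 0.721) did not pass.

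Of 13 genes that control the entry of pyruvate into mitochondria, 1 was called: Pdk4, the kinase that switches off pyruvate dehydrogenase. It fell from 113 ± 65.9 to 27.0 ± 8.98 CPM (-2.07, SE 0.49, adjusted p = 0.0463), with WT1 at 167 CPM and WT2 at 39.9 CPM, so the WT libraries themselves varied several times over. Pdk2, another kinase of the family, had a log2 fold change of -1.19 (adjusted p = 0.0738), while the dehydrogenase subunits Pdha1 (-0.11, adjusted p = 0.679) and Pdhb (-0.19, adjusted p = 0.385) and the acetyltransferase Dlat (-0.40, adjusted p = 0.183) were nearer to 0. Among 7 transporters of glucose and lactate, Slc2a1, the glucose transporter GLUT1 found in most tissues, rose from 59.7 ± 9.89 to 101 ± 12.8 CPM (0.77, adjusted p = 0.0377). The insulin-responsive Slc2a4 of muscle and fat was at 122 ± 31.7 and 59.1 ± 28.9 CPM (-1.04, adjusted p = 0.0942), with overlap between WT2 and KO3, and Bsg (-0.36, adjusted p = 0.202) and Slc16a1 (0.09, adjusted p = 0.732) did not pass. Of 20 regulators of energy metabolism and muscle genes 0 passed, with a median of -0.32; Mef2d had a log2 fold change of -0.55 (adjusted p = 0.0749), Mef2a 0.03, Ppard 0.29 and Hif1a 0.50 (adjusted p = 0.132).

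Only Ak4 and Slc25a13 of these 8 called genes stayed past the threshold whichever library was left out. The call of Gyg was lost without WT1, WT2, WT3, KO1 or KO2 (adjusted p between 0.0934 and 0.217), as was that of Fbp1 (0.0731 to 0.205) and that of Slc2a1 (0.0677 to 0.116). Epm2a was not called without WT2, WT3, KO1 or KO2 (0.0681 to 0.116), and neither Pdk4 (0.144 to 0.203) nor Gpd2 (0.0572 to 0.101) was called without WT1, WT3, KO1 or KO2. Without KO3, 33 genes of the lists were called lower and 13 higher, where 16.2% and 16.9% of all tested genes were called.

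**Figure D5:**
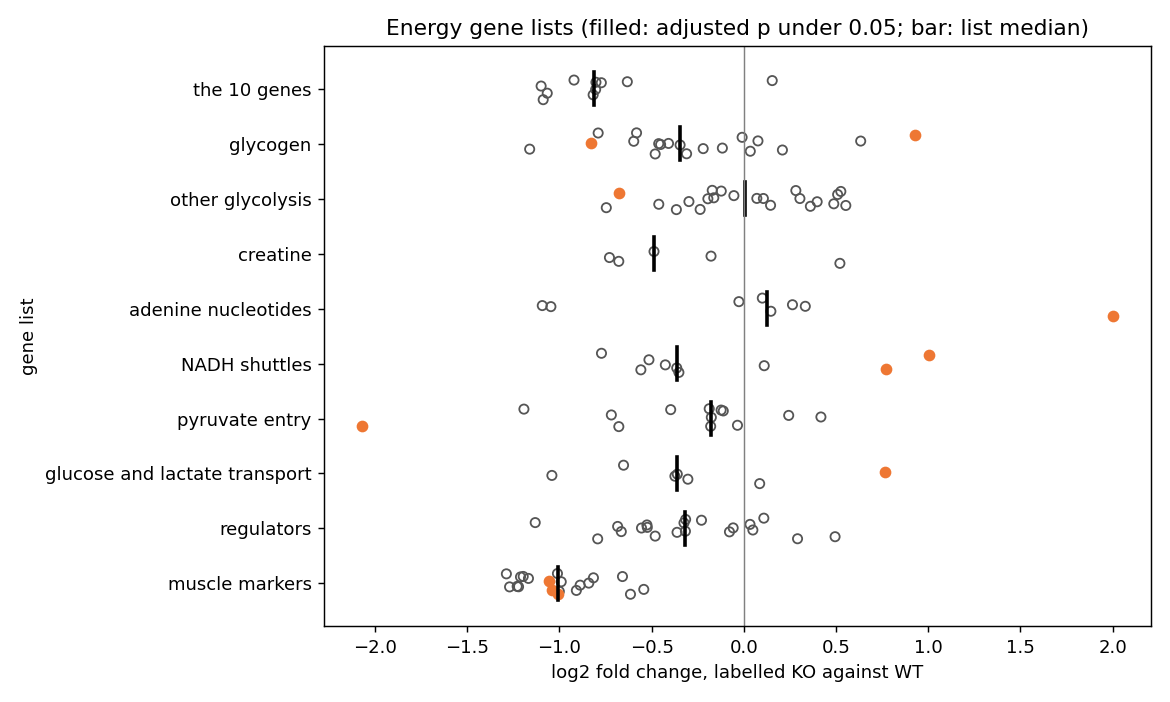
Log2 fold change (horizontal axis) of every tested gene of the 10 genes, the 8 pathway lists and the muscle markers, filled where the adjusted p is under 0.05, with a bar at each median. The medians of the 10 genes (-0.81) and of the muscle markers (-1.01) lie furthest to the left, and Ak4 (2.0) and Pdk4 (-2.07) at the ends of the axis.

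Among the genes whose log2 CPM over the 6 libraries was most like the mean standardised log2 CPM of the 10 genes were Ugt1a1 (Pearson r = 0.997), Adssl1 (0.995), Inpp5a (0.995), H6pd (0.994), Tmem52 (0.994), Spg7, Tmem255b, Mylk2 and Mgat3 (0.993 each). The 6 points share the split by label and the position of KO3, and the values are a description. Mylk2, the myosin light chain kinase of skeletal muscle, had 59.7, 43.7 and 53.7 CPM in WT1, WT2 and WT3 and 18.3, 20.3 and 39.1 CPM in KO1, KO2 and KO3 (log2 fold change -1.02, adjusted p = 0.0755). In this gene KO3 lay between the other libraries labelled KO and WT, as in 7 of the 10 genes, and none of the genes named here passed an adjusted p of 0.05.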

How the data were processed

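RNA from the top lip of 3 WT and 3 KO mice, 1 library per mouse, was sequenced as paired-end mRNA libraries (RNA integrity numbers 9 to 9.5). Per the submitters' processing notes, TopHat2 2.0.8 and Bowtie2 2.1.0 placed the reads on GRCm38, and the authors deposited for each gene symbol the whole-number count of reads that HTSeq assigned uniquely, without normalization; the strand setting is not given in the sources used here. All 6 columns were used. Totals ran from 20164081 to 29491767 counts, and limits based on 3 counts cover counting error only.

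Genes reaching 1 CPM (counts scaled to a common library size) in 3 or more libraries, 15009 of 26814, were scaled by TMM and tested with edgeR 4.0.16 (glmQLFit with legacy=FALSE, glmQLFTest) in R 4.3.3, with Benjamini-Hochberg adjustment over all tested genes and a threshold of 0.05. The procedure was tested on simulated data with 200 changed genes, with a spread taken from the WT libraries alone. The wider spread of the libraries labelled KO was not part of that simulation. CPM values use TMM-scaled library sizes. Ratios to paralogues and to muscle markers used log2(CPM + 1) and exact two-sided permutation tests. Lengths, positions and overlaps come from GENCODE M21 on GRCm38, and promoters from RefSeq. Alternatives were edgeR's exact test, DESeq2 1.42.0, limma-voom (limma 3.58.1), the older quasi-likelihood fit, 3 other scalings, 2 other filters, a replicate block, an adjusted p under 0.1, a pseudocount of 0.25, the median of the markers, the longest transcript and each library left out. Figures were drawn with matplotlib 3.10.9.

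The genes and lists were chosen with earlier results of these data known. Named singly are the 10 genes, their paralogues, the list genes past the threshold, the 4 most abundant of each list, 6 muscle markers and the 10 genes of most similar pattern; the called markers Tnnt3, Tnni2, Tcap and Fabp4, the brown fat markers Ucp1, Elovl3 and Cidea, and the untested Tnnc1, Tnnc2, Myh6 and Nppa, were named after their values were seen. Some genes that this rule selects are not reported here.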

Additional observations from a re-analysis of the deposited data

How the results depend on the processing

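The number of the 10 genes called lower was 0 under limma-voom, the older quasi-likelihood fit, every scaling, both filters and the replicate block, 8 under edgeR's exact test, 7 under DESeq2 and 7 at an adjusted p under 0.1. Over left-out libraries it ran from 0 to 9, the latter without KO3. Their directions held under all alternatives. Of the pathway genes 3 were called lower, against 18 under the exact test, 18 under DESeq2, 21 at an adjusted p under 0.1, 5 with upper-quartile normalization and 1 each with limma-voom, DESeq2 size factors, no filter, at least 10 counts in every library and the replicate block, and 0 to 33 with a library left out. The number called higher was 5, against 9 under DESeq2, 8 at an adjusted p under 0.1 and 2 to 13 with a library left out. The lists held 103 tested genes. Of all tested genes, 7.15% were lower under the exact test, 5.31% under DESeq2 and 8.53% at an adjusted p under 0.1. Higher were 1511 of 16927 genes under DESeq2 and 1248 of 15009 at an adjusted p under 0.1. The cause of the differences between settings was not tested. The median WT level of the 10 genes was 172.7 CPM per kb with all exons and 204 with the longest transcript.

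No pairing of mice by replicate number was used in the main test. Deviations from the group means correlated at -0.19, 0.32 and 0.34 between libraries of the same number. Between libraries of different numbers they correlated at -0.52 to 0.43. Deviations of 3 libraries from their own mean are tied to each other, so these correlations cannot decide whether the numbers pair the mice. With the replicate block 217 of all genes were lower and 580 higher, against 314 and 657 without it, 1073 and 1165 under the exact test and 898 and 1511 under DESeq2. Without KO3 the numbers were 2395 and 2496, and without any other library 18 to 62 were lower. With 3 mice per label, an exact permutation test cannot go below 0.1.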
